A study of Mus musculus with 4 samples.

Results

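The passage from the fertilized egg to the early 2-cell (E2C) embryo of the mouse was followed in 9 zygotes and 10 E2C blastomeres, which are 19 of the 161 single cells measured. Cells were chosen by the stage written in their names. The 2 blastomeres of each E2C embryo were averaged, so 9 zygotes were compared with 5 E2C embryos, 14 of the 43 embryos available from the oocyte to the 16-cell stage. All were untreated offspring of superovulated C57BL/6J females and DBA/2NCrl males (strain DBA/2J x C57BL/6J in the labels). Zygotes were taken 22 to 24 hours and E2C embryos 30 to 32 hours after injection of hCG, the hormone that triggers ovulation. For orientation, levels are also given for unfertilized oocytes at 20 hours (10 cells, from unmated females) and late 2-cell (L2C) embryos at 46 to 48 hours (6 embryos). The mother of each embryo is not given, so p-values measure the spread between embryos, which may in part be technical.

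In the mouse, transcription from the newly formed genome starts at a low level in the zygote (minor zygotic genome activation, ZGA), and the large wave of new transcription follows in the late 2-cell embryo (major ZGA). Until then the embryo lives on RNA and protein stored by the oocyte. Stored messenger RNAs (mRNAs) are kept silent with short poly(A) tails, and are later either given longer tails and translated or stripped of their tails and destroyed. The change of a transcript between the zygote and E2C can thus have been made without new transcription, and with capture on the poly(A) tail a longer or shorter tail and more or fewer molecules cannot be told apart.

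Each cell was reverse transcribed with a barcoded oligo-dT primer, and full-length cDNA was read on a long-read sequencer, so that whole isoforms were counted by their molecular identifiers (UMIs). Levels are copies per 100,000 UMIs of a cell. Zygotes held 194072 to 389775 gene UMIs and E2C blastomeres 31037 to 105534, and the lowest E2C value belonged to 1 of the 2 cells of E2C embryo 5. Markers of the labelled stages were present: summed levels of 15 oocyte and zygote markers were 4460 to 7010 in zygotes and 2760 to 3630 in E2C embryos, against a median of 934 at L2C. Markers of cumulus cells, which surround the ovulated egg, summed to 5.77 to 16.4 copies in zygotes and 2.63 to 7.20 in E2C embryos over the 16 of 20 in the table, of which 5 passed the filter on low values and 0 were called by limma as described below (2 at an unadjusted p under 0.05, and 1 called lower by edgeR and by DESeq2 of the 4 these tools tested). Sperm markers summed to 7.21 to 14.6 and 5.43 to 19.8 copies, with 3 of 11 tested and 0 called by limma, edgeR or DESeq2 or at an unadjusted p under 0.05, and Prm1, Tnp2 and Gapdhs were at 0 in all 14 embryos.

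The zygotes came from 3 sequencing runs and were not alike. Some transcripts of the oocyte were highest in the 3 zygotes of run 3. For H1foo the mean was 741 in run 1 (4 zygotes), 430.0 in run 2 (2 zygotes) and 1800.0 in run 3. Mean Gdf9 was 248, 154 and 809, and mean Mos was 11.7, 5.07 and 56.9. Other transcripts were lowest in run 3, with mean Dnmt1 at 31.3, 37.2 and 13.6 and mean Hsp90aa1 at 172, 252 and 85.8. Which run each E2C cell came from is not given, so run and stage cannot be told apart beyond a comparison with the zygotes of 1 run at a time. Calls that were lost in such a comparison, or with 1 E2C embryo left out, are named with the gene or at the end of its group.

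A gene was called higher or lower when its mean log2 level changed by over 1 with p under 0.01 in limma, fitted to all 7 stages, and Benjamini-Hochberg adjusted p-values of the same fit are given beside the change. Of 11682 genes tested, 528 (4.52%) were higher and 321 (2.75%) were lower in E2C embryos. The balance of these counts depends on scaling. The median change over all genes was 0.11 on the log2 scale, and with TMM scaling, under which that median was 0, 301 genes were higher and 548 lower. The E2C embryos lay wholly above the zygotes in 334 genes (2.86%) and wholly below in 182 (1.56%). Genes that rose had a median level of 2.04 copies in zygotes and 6.62 in E2C embryos, and 67 of the 528 were under 1 copy in every zygote, as were 2582 of all 11682 genes tested. Genes that fell were more abundant in zygotes than those that rose, with a median of 10.5 copies in zygotes and 2.80 in E2C embryos. The call rule itself favours this, since a fall needs a high zygote value and a rise is easier from a low one. In the stage where each was higher, the medians were 10.5 copies for falls and 6.62 for rises. Summed over the called genes, which were chosen for these changes, falls went from 9680 to 2860 copies per 100,000 and rises from 2220 to 6080. The same 528 rises summed to 1370 copies in oocytes and 4180 in L2C embryos, and the same 321 falls to 11400 in oocytes and 2690 in L2C embryos.

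The largest changes were sought among called genes at 10 or more copies in the higher stage whose zygotes and E2C embryos did not overlap. Of these, the 10 largest falls included a growth factor, a linker histone and a spindle checkpoint kinase. Gdf9 (chr11:53431023-53437904), a growth factor that the oocyte secretes to its follicle, was at 98.8 to 947 copies in zygotes (median 294) and at 52.1, 25.4, 21.2, 47.6 and 68.1 in E2C embryos 1 to 5. No E2C embryo reached the lowest zygote, as the choice of genes required, and the log2 change was -2.91 ± 0.44 (SE; adjusted p = 1.48e-06). Sumo2 (chr11:115523102-115536276), a small modifier that is attached to other proteins, went from 47.4 to 116 copies (median 67.0) to 16.1, 4.94, 4.48, 8.89 and 16.2, a change of -2.80 ± 0.21 (adjusted p = 8.41e-16). Its level was 155 in oocytes and 135 at L2C, so the E2C value was the lowest of the 4 stages. Radixin (Rdx, chr9:52047173-52088735), which links actin to the cell membrane, was at 115 to 243 copies (median 158) and then at 24.1, 24.5, 30.5, 25.2 and 38.3. This fall was nearly equal against the zygotes of each run (-2.56, -2.56 and -2.54).

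Smc3, a cohesin subunit that holds sister chromatids together, was at 6.64 to 25.8 copies in zygotes and at 0, 1.76, 1.42, 0.965 and 0.543 in E2C embryos (-3.05 ± 0.30, adjusted p = 8.8e-12). Lamtor3, a subunit of the Ragulator complex at lysosomes, was at 38.1 to 78.8 and then at 12.6, 8.45, 8.48, 9.72 and 7.04 (-2.58 ± 0.24, adjusted p = 1.2e-12). The groups of both genes lay apart, as the choice of genes required. For Smc3 the E2C values rest on few UMIs, since 1 UMI of an E2C cell stood for 0.9476 to 3.222 copies. Bub1b, a spindle checkpoint kinase, and H1foo, the linker histone of the oocyte, fell in every comparison with 1 run, by 3.93, 3.26 and 5.08 for Bub1b and by 3.06, 2.28 and 4.4 for H1foo on the log2 scale. The remaining members of the 10 largest falls were 1110059G10Rik (-3.16), Elovl5 (-3.11), a fatty acid elongase, and Bin2 (-2.69). Elovl5 lost its call when the gene's level was taken as the sum of its classified isoforms.

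**Figure D1:**
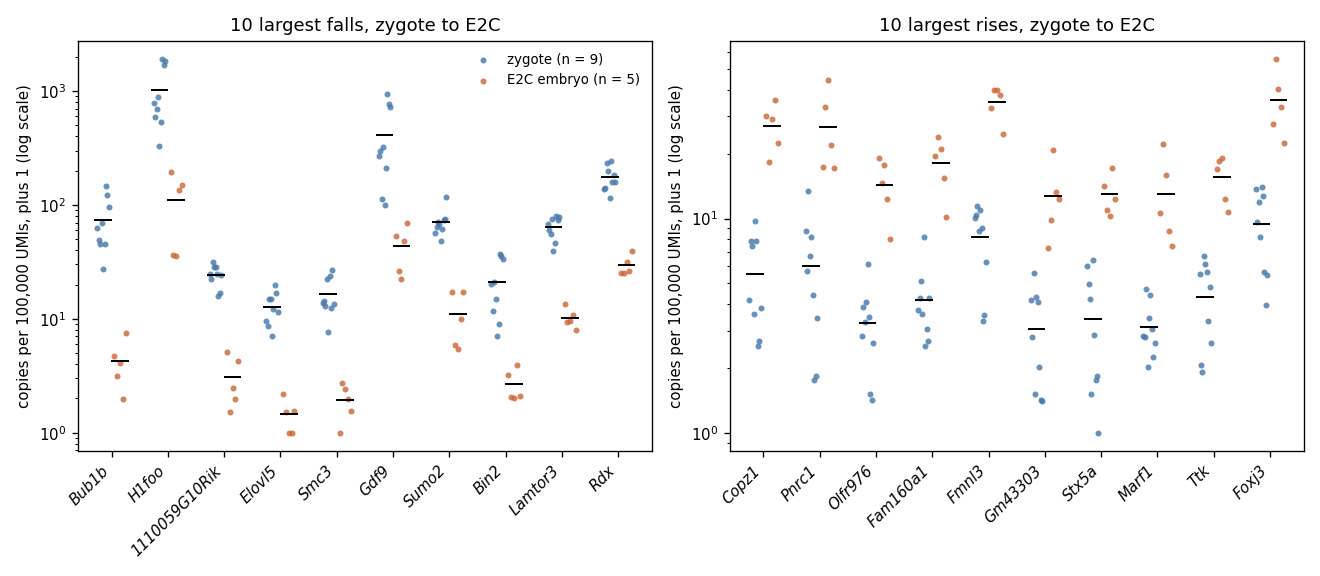
Levels of the genes with the 10 largest falls (left) and 10 largest rises (right) among called genes at 10 or more copies whose groups do not overlap. The y axis is copies per 100,000 UMIs plus 1 on a log scale, each blue point is a zygote (n = 9), each orange point an E2C embryo (n = 5), and black lines are means. In all 20 genes the orange points lie wholly on 1 side of the blue points, as the choice of the genes requires.

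The 10 largest rises, chosen by the same rule, included a formin, a forkhead transcription factor and a Golgi SNARE. Fmnl3, a formin that nucleates actin filaments, was at 2.31 to 10.5 copies in zygotes (median 8.06) and at 31.7, 39.0, 39.0, 36.8 and 23.8 in E2C embryos, a change of 2.13 ± 0.35 (adjusted p = 7.73e-06), with 1.75 in oocytes and 15.8 at L2C. Foxj3, a forkhead transcription factor, was at 2.96 to 13 and then at 26.8, 54.5, 39.5, 32.3 and 21.6 (1.92 ± 0.32, adjusted p = 9.02e-06), but its call was lost when isoforms were summed. Marf1, an RNA-binding protein needed for oocyte meiosis, rose from 1.03 to 3.67 copies to 9.59, 21.4, 15, 7.79 and 6.46 (2.00 ± 0.31, adjusted p = 2.37e-06). Every E2C embryo exceeded every zygote in these genes, as their choice required. Olfr976, annotated as an olfactory receptor, was at 0.423 to 5.13 copies and then at 18.2, 13.6, 16.8, 11.4 and 7.04 (2.18 ± 0.27, adjusted p = 2.3e-08), and stood at 0.396 in oocytes and 0.164 at L2C, so that among the 4 stages it was high at E2C alone. Gm43303 had a like course, with 0.283 in oocytes, a mean of 2.04 in zygotes, 11.8 in E2C embryos and 0.195 at L2C. Fam160a1 rose by 2.16 ± 0.31, and Copz1, Pnrc1, Stx5a and Ttk are taken up with their groups. All 20 of the largest changes were called in the same direction against the zygotes of each run, with every E2C embryo left out in turn, and with edgeR and DESeq2. The 20 were picked for large changes without overlap in these same embryos, so this is no independent check.

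Genes of 32 functional lists were then counted. Of the genes that bind and store maternal mRNAs or mark them for decay, 36 were tested, 7 rose and 2 fell, and the list's median change was 0.32, against 0.11 for all genes (with TMM scaling, 6 rose and 3 fell). The falls were 2 storage proteins. Zar1, which binds stored mRNAs, was at 82.4 to 304 copies in zygotes (median 122) and at 26.1, 21, 13.7, 39.5 and 37.2 in E2C embryos (-2.28 ± 0.27, adjusted p = 6.19e-09). Lsm14b, a protein of storage granules, was at 11.5 to 75.2 and then at 5.34, 4.94, 7.39, 2.96 and 5.94 (-2.08 ± 0.31, adjusted p = 1.57e-06), while its relative Lsm14a did not pass the test, with a mean of 60.3 in zygotes and 90.2 in E2C embryos. Rises came from other members of the same machinery. Rbpms2, an RNA-binding protein, was at 6.77 to 41.4 copies (median 20.6) and then at 55.8, 57.7, 52.0, 74.5 and 64.3 (1.47 ± 0.29, adjusted p = 0.000146). Eif4e1b, the cap-binding protein of oocytes, rose from a mean of 12.4 to 36.2 copies (1.46 ± 0.32, adjusted p = 0.000803). Both lost their call against the zygotes of run 2 alone, where Rbpms2 changed by 0.89 and Eif4e1b by 1.0.

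The Y-box proteins, which package stored mRNAs, also rose: Ybx3 from 0.423 to 7.72 copies to 11.8, 25.9, 18.3, 7.72 and 5.41 (1.82 ± 0.40, adjusted p = 0.000827), and Ybx2 from 0 to 3.32 copies to 8.18, 10.8, 10.8, 8.20 and 9.69 (1.90 ± 0.31, adjusted p = 6.78e-06). For Ybx2 the E2C embryos were tightly grouped above all zygotes, whereas for Ybx3 E2C embryos 4 and 5 did not exceed the highest zygote. Eif4enif1 (a partner of Eif4e1b), Pabpc1l (the poly(A)-binding protein of oocytes) and Lin28a made up the 7. The enzymes that shorten poly(A) tails and remove caps gave 3 rises and 0 falls of 35 tested (1 and 1 with TMM scaling). Cnot1, the scaffold of the main deadenylase complex, rose from a mean of 2.15 to 7.98 copies (1.59 ± 0.30, adjusted p = 9.7e-05), and Lsm3 and Lsm6, subunits of the rings that aid decapping or splicing, rose by 1.01 and 1.10. Btg4, the adaptor that brings deadenylases to maternal mRNAs, was abundant and did not pass the test, with means of 863 and 601 (-0.51 ± 0.33), although every E2C embryo (498 to 661) lay below every zygote (741 to 1020). Against the zygotes of run 2 alone the calls of Pabpc1l, Cnot1, Lsm3 and Lsm6 were lost, against run 1 alone those of Lsm3 and Eif4enif1, and against run 3 alone that of Lin28a. The calls of Lsm3, Lsm6, Eif4enif1 and Pabpc1l were also lost with edgeR and with DESeq2, the first 3 of them with TMM scaling, and the Lsm3 call was lost without E2C embryo 1, 4 or 5.

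Genes of the meiotic and mitotic divisions were called in both directions, as were genes at large, of which 4.52% rose and 2.75% fell. Whether the lists of these divisions differ from those shares was not tested, and calls in both directions do not set them apart. Of 36 spindle checkpoint and kinetochore genes, 2 rose and 2 fell, and the median change was 0.01 (1 rise and 4 falls with TMM scaling). Ttk, the kinase at the top of the spindle checkpoint, was at 0.917 to 5.67 copies in zygotes (median 3.81) and at 16.0, 17.5, 18.2, 11.4 and 9.72 in E2C embryos (1.99 ± 0.31, adjusted p = 3.98e-06). Ndc80, the kinetochore protein that grips microtubules, went the other way, from 12.9 to 28.8 (median 18.7) to 6.64, 1.05, 2.65, 3.58 and 3.77 (-2.23 ± 0.26, adjusted p = 3.3e-09). Neither gene had an E2C embryo within the range of the zygotes. Aurkc, the Aurora kinase of meiosis, was lower in every E2C embryo than in every zygote, with means of 122 and 63.8, without passing the fold limit (-1.0 ± 0.25). Spc25, a partner of Ndc80 in the same complex, was low, at means of 1.74 and 5.03, and was called higher (1.05 ± 0.34, adjusted p = 0.0249), a call lost with TMM scaling, against run 2 alone and without E2C embryo 2 or 3.

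Among 28 kinases and cyclins of meiosis, 2 rose and 2 fell. Mos, the kinase that holds the egg at its second meiotic metaphase, was at 3.62 to 70.6 copies in zygotes (median 12.4) and at 5.11, 1.05, 0, 3.65 and 3.78 in E2C embryos (-2.38 ± 0.44, adjusted p = 7.62e-05), with 78.1 in oocytes. Plat, a secreted protease whose mRNA is a classic example of a stored message, went from 9.36 to 144 copies to 16.0, 4.39, 3.53, 7.65 and 17.8 (-2.04 ± 0.42, adjusted p = 0.000294). The zygote values of both genes spread widely, and neither was called against the zygotes of run 2 alone, with Mos at -0.96 and Plat at -1.07. Mapk3 (ERK1), which acts downstream of Mos, rose from a mean of 4.57 to 15.4 copies (1.61 ± 0.36, adjusted p = 0.00114), again not against run 2 alone (1.06). Cdc25b, a phosphatase that starts M phase, rose by 1.14 ± 0.34. The abundant cyclin B1 (Ccnb1, means of 241 and 237) and Cks2 (448 and 398) did not pass the test. In the anaphase-promoting complex, which destroys cyclins, 1 of 21 genes rose (its activator Fzr1, from a mean of 0.992 to 3.93) and 1 fell (its subunit Cdc26, from 10.5 to 2.99). The calls of Cdc25b, Fzr1 and Cdc26 were lost against run 2 alone, and that of Cdc25b with TMM scaling as well. Its substrate securin (Pttg1) was among the most abundant mRNAs at both stages, with means of 987 and 1090.

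Among tubulins and mitotic motors, 1 of 51 rose and 2 fell (0 and 4 with TMM scaling). Prc1 and Kif23, which build the spindle midzone for cell division, fell by 1.31 ± 0.20 and 1.09 ± 0.22 on the log2 scale, and Kif14, a further motor of the midzone, rose by 1.2 ± 0.34. DNA replication genes gave 3 rises and 1 fall of 46, all under 10 copies: Orc3 of the origin recognition complex, Gins2 and Gins4 of the replicative helicase rose, and Prim2, the large primase subunit, fell from a mean of 5.92 to 1.0. The calls of Kif14, Orc3, Gins2 and Gins4 were lost against run 2 alone, those of Kif14 and Gins2 with TMM scaling, that of Gins2 without E2C embryo 1 or 4 and that of Kif23 without E2C embryo 4.

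Markers of the egg were lost more than any other list by median change. Of 15 oocyte and zygote markers, 6 fell and 1 rose, with a median change of -0.80 (8 and 0 with TMM scaling). Besides Gdf9, H1foo, Mos and Zar1, the falls were Oosp1, a secreted protein of the oocyte, at 790 to 1300 copies in zygotes (median 971) and 438, 279, 303, 392 and 386 in E2C embryos (-1.58 ± 0.31, adjusted p = 0.000197), and Zp3, the sperm-binding protein of the egg coat, whose mean went from 16.2 to 5.17. Zp3 was not called against run 3 alone or from summed isoforms. Bmp15, the partner of Gdf9, was the exception in the list and was called higher, at 16.1 to 179 copies in zygotes and 199, 215, 194, 119 and 109 in E2C embryos (1.11 ± 0.35, adjusted p = 0.022). That call was lost with TMM scaling, with edgeR, with DESeq2, against the zygotes of run 1 or 2 alone and without E2C embryo 2 or 3. Of 14 secreted factors of the oocyte 2 rose and 2 fell, and of 8 egg-coat and surface genes 0 rose and 2 fell (Zp3 and Astl, the protease that hardens the coat after fertilization). The Astl call was lost against run 2 alone and without E2C embryo 3.

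Other abundant maternal mRNAs were not called. Dppa3, which protects the maternal genome from demethylation, was at 682 to 1170 copies in zygotes and 872 to 1190 in E2C embryos, with a change of 0.05 ± 0.16. Slbp, the histone mRNA binding protein (means of 650 and 638), Omt2b (963 and 831) and Bcl2l10 (869 and 720) did not pass the test either. At L2C, Dppa3 was at 760, Slbp at 47.9, Omt2b at 336 and Bcl2l10 at 46.3. Genes of the subcortical maternal complex and its NLRP relatives gave 2 rises and 1 fall of 16 and a median change of 0.35 (1 and 2 with TMM scaling). Nlrp9b was at 3.08 to 15.4 copies in zygotes and at 37.4, 25.2, 33.1, 33.1 and 32.9 in E2C embryos (1.76 ± 0.29, adjusted p = 8.3e-06), and Nlrp4e rose by 1.13 ± 0.30, a call lost with TMM scaling, with edgeR, against run 2 alone and without E2C embryo 3. Tle6, a core subunit of the complex, was called lower (-1.01 ± 0.37, adjusted p = 0.0533) on means of 22.3 and 12, and the call was lost against run 1 or 3 alone and without E2C embryo 1, 2 or 3. Reads of the near-identical NLRP genes may be split between copies.

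Of 76 histone-modifying enzymes, 4 rose and 1 fell, with a median change of 0.22 (4 and 2 with TMM scaling). Crebbp, a histone acetyltransferase and coactivator, was at 0.847 to 5.13 copies in zygotes and at 7.50, 17.8, 13.2, 9.58 and 9.72 in E2C embryos (1.47 ± 0.26, adjusted p = 3.9e-05). Kdm2b, a histone demethylase, went from 8.47 to 34.1 (median 23.9) to 51.4, 71.5, 64.4, 38.8 and 51.8 (1.31 ± 0.34, adjusted p = 0.00496), and was not called against run 2 alone (0.89). The H3K36 methyltransferase Nsd1 rose by 1.37 ± 0.30 and the H3K4 methyltransferase Kmt2d by 1.28 ± 0.28. Hat1, which acetylates newly made histone H4, fell from a mean of 15.1 to 6.75. Among 21 genes of DNA methylation and imprint protection, Dnmt1, the maintenance methyltransferase, went from 12.2 to 47.4 copies (median 26.9) to 8.94, 9.54, 11, 5.86 and 8.69 (-1.5 ± 0.32, adjusted p = 0.000464), but not against run 3 alone, whose zygotes had a mean of 13.6. Trim28, a corepressor that guards imprints, fell by 1.18 ± 0.25, and Dnmt3l, a cofactor of de novo methylation, was called higher at 1.03 ± 0.32. In the histones and their chaperones, H1foo was the 1 fall of 28 genes and Lsm10, of the machinery that processes histone mRNA, the 1 rise (1.33 ± 0.46, adjusted p = 0.0403). The Lsm10 call was lost with TMM scaling, edgeR and DESeq2, against run 1 alone and without E2C embryo 1, 3, 4 or 5, and against run 2 alone its sign was reversed (-0.17). The Trim28 call was lost against run 1 or 2 alone, and that of Dnmt3l with TMM scaling, with edgeR, against run 2 alone and without E2C embryo 2 or 4.

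Of 48 translation factors tested 8 rose and 1 fell, at a median change of 0.09, which is close to that of all genes (4 and 2 with TMM scaling, and 2 and 3 against the zygotes of run 2 alone). Etf1, the release factor that ends translation, was at 0.406 to 3.67 copies in zygotes and at 7.19, 7.23, 12.2, 6.20 and 15.1 in E2C embryos (1.56 ± 0.26, adjusted p = 1.48e-05), with 52.7 at L2C. Eef1e1, Eif1b, Eif1ax, Eif2s3x, Eif4b, Eif4ebp2 and Eef2 rose by 1.0 to 1.25. All 7 of these calls were lost against the zygotes of 1 run, namely run 2 for Eef1e1, Eif2s3x and Eef2, run 1 or 2 for Eif1b, Eif1ax and Eif4b, and run 1 or 3 for Eif4ebp2. TMM scaling lost those of Eif1b, Eif1ax, Eif4b and Eif4ebp2, as did leaving out E2C embryo 4 for Eif1b, 1 or 3 for Eif1ax, 2 or 3 for Eif4b, and 1, 2 or 5 for Eif4ebp2. Eif5b, which joins the ribosomal subunits at the start codon, was the fall, from 27.5 to 76.6 copies to 12.7, 11.3, 21.7, 5.58 and 9.72 (-2.15 ± 0.30, adjusted p = 4.08e-07). By limma 0 of 81 cytoplasmic ribosomal protein genes were called, at a median of 0.13, with 7 at an unadjusted p under 0.05, 1 called lower by edgeR and 0 called by DESeq2. Their summed level was 646 to 1500 copies in zygotes and 779 to 1140 in E2C embryos, against a median of 6120 at L2C. The direction changed with the run, since 6 of the 81 fell against the zygotes of run 2 alone and 6 rose against those of run 3 alone. The nuclear genes of the respiratory chain gave 0 calls of 77 by limma, edgeR and DESeq2 (13 at an unadjusted p under 0.05), with 3 falls against run 2 alone and 11 rises against run 3 alone. The mitochondrial ribosome gave 2 rises and 1 fall of 78, and the proteasome 1 and 1 of 48 (0 and 4 with TMM scaling). Of 13 genes encoded in mitochondrial DNA 1 fell (mt-Nd3, -1.14 ± 0.37), and that change was 0.06 against run 3 alone, with the call also lost without E2C embryo 1 or 4.

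Of 91 genes of RNA polymerase II, its general factors and Mediator, 6 fell and 1 rose at a median of -0.01 (11 and 0 with TMM scaling). The balance was not stable, with 1 fall and 5 rises after thinning to equal depth and 5 and 6 against the zygotes of run 3 alone. Taf8 of the TFIID complex was at 4.34 to 20.5 copies in zygotes and at 4.58, 0, 1.56, 2.14 and 2.70 in E2C embryos (-1.86 ± 0.30, adjusted p = 5.73e-06). Med20 of Mediator fell from a mean of 10.3 to 2.73 and Larp7, which holds the elongation factor P-TEFb in reserve, from 12 to 3.83. Gtf2b, which recruits the polymerase, went from a mean of 84.6 to 41. Med1 was the rise (1.05 ± 0.31), and Polr2c, the most abundant member, did not pass the test at means of 219 and 197. The calls of Med20 and Med1 were lost against run 2 alone and those of Larp7 and Gtf2b against run 3 alone, that of Gtf2b also without E2C embryo 2 or 3, and that of Med1 also with TMM scaling and without E2C embryo 3 or 4. Of 78 splicing factors 6 fell and 2 rose (11 and 1 with TMM scaling). U2af1, which recognizes the 3′ splice site, was at 4.59 to 19.2 copies and then at 3.49, 1.58, 1.42, 2.55 and 10.8 (-1.85 ± 0.28, adjusted p = 1.88e-06), with E2C embryo 5 inside the range of the zygotes. Snrpa1 of the U2 particle fell from 17.5 to 29 copies to 14, 5.26, 3.93, 7.72 and 9.18, and Clk1, a kinase of splicing factors, from a mean of 25.9 to 6.93. Ribosome biogenesis gave 5 falls and 1 rise of 94 (10 and 0 with TMM scaling, and 2 and 5 against run 3 alone), among them Ncl (nucleolin, means of 30.2 and 7.83) and Dkc1 of the pseudouridine synthase (11.3 and 3.30). The Dkc1 call was lost against run 3 alone, and from summed isoforms its change was 0.25.

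Nuclear pore and transport genes were split, with 5 rises and 4 falls of 59 and 0 rises and 5 falls with TMM scaling. Nup35, a structural pore protein, was at 78.7 to 135 copies in zygotes and at 47.0, 37.0, 24.6, 51.8 and 29.8 in E2C embryos (-1.42 ± 0.21, adjusted p = 1.36e-06). Nxt1, a cofactor of mRNA export, went from 17.2 to 34.3 in zygotes to between 1.24 and 8.94 in E2C embryos (-2.22 ± 0.27, adjusted p = 1.26e-08). Among the import receptors, Kpna3 rose from a mean of 20.9 to 47.4 and Kpnb1 from 4.43 to 11.8, and the export receptor Xpo1 from 3.71 to 9.37, calls that TMM scaling lost, as did run 2 alone for Kpnb1 and Xpo1.

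Subunits of a complex, or relatives in a family, were in places called in opposite directions. Copz1 and Arcn1 are both subunits of the COPI coat of Golgi vesicles. Copz1 rose by 2.30, 1.64 and 3.25 on the log2 scale against the zygotes of runs 1, 2 and 3, whereas Arcn1 was at 9.38 to 33.3 copies in zygotes and at 2.84, 3.36, 1.97, 2.96 and 3.77 in E2C embryos (-2.14 ± 0.27, adjusted p = 2.3e-08). Of 64 genes of vesicle coats and traffic between endoplasmic reticulum and Golgi, 3 rose and 5 fell. The Golgi SNARE Stx5a was at 0 to 5.44 copies and then at 13.2, 10.0, 9.24, 16.3 and 11.3 (2.09 ± 0.37, adjusted p = 3.78e-05), and the small GTPase Arf3 rose by 1.73 ± 0.37. Falls of Tmed2, Kdelr2, Lman2 and Sec13 lay between -1.16 and -1.04. Against run 2 alone the calls of Arf3, Kdelr2, Lman2 and Tmed2 were lost, with the sign of Tmed2 reversed (0.13), and against run 1 alone those of Lman2 and Sec13. Leaving out E2C embryo 3 lost the calls of Tmed2, Lman2 and Sec13, embryo 2 those of Lman2 and Sec13, and embryo 5 that of Lman2. Sumo2 fell while its relative Sumo3 rose, from 2.05 to 16.9 copies to 21.3, 26.7, 27.6, 28.1 and 30.2 (1.46 ± 0.29, adjusted p = 0.000168), though not against run 2 alone. The ubiquitin list gave 4 rises and 2 falls of 54 (2 and 4 with TMM scaling), and its rises included Ube2a, a ubiquitin-conjugating enzyme of DNA damage tolerance (1.52 ± 0.29).

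Chaperones and folding enzymes were called lower in 4 of 55 and higher in 1. Hsp90aa1, a cytosolic chaperone, went from 44.1 to 328 copies (median 166) to 63.9, 38.3, 62.0, 28.7 and 29.7 (-1.76 ± 0.37, adjusted p = 0.000353), but not against run 3 alone (-0.72). Pdia6, P4hb and Dnajc3 of the endoplasmic reticulum fell by 1.94, 1.86 and 1.49 on the log2 scale, and Dnajb9 of the same compartment rose by 1.22. Sugar metabolism gave 4 rises and 1 fall of 40 (2 and 2 with TMM scaling). Citrate synthase (Cs), the entry of the citrate cycle, was at 15.4 to 22.0 copies and then at 35.2, 46.9, 48.3, 32.7 and 36.2 (1.06 ± 0.24, adjusted p = 0.00102), a call lost with TMM scaling, with edgeR and without E2C embryo 2 or 3, and Mdh1, the cytosolic malate dehydrogenase, fell from a mean of 30.2 to 12.8. Of 24 immediate-early genes 2 rose: Sertad1, and Pnrc1, a coactivator of nuclear receptors, which rose by 1.71, 2.08 and 3.59 against the 3 runs. The Sertad1 call was lost against run 2 or 3 alone and without E2C embryo 3 or 4.

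**Figure D2:**
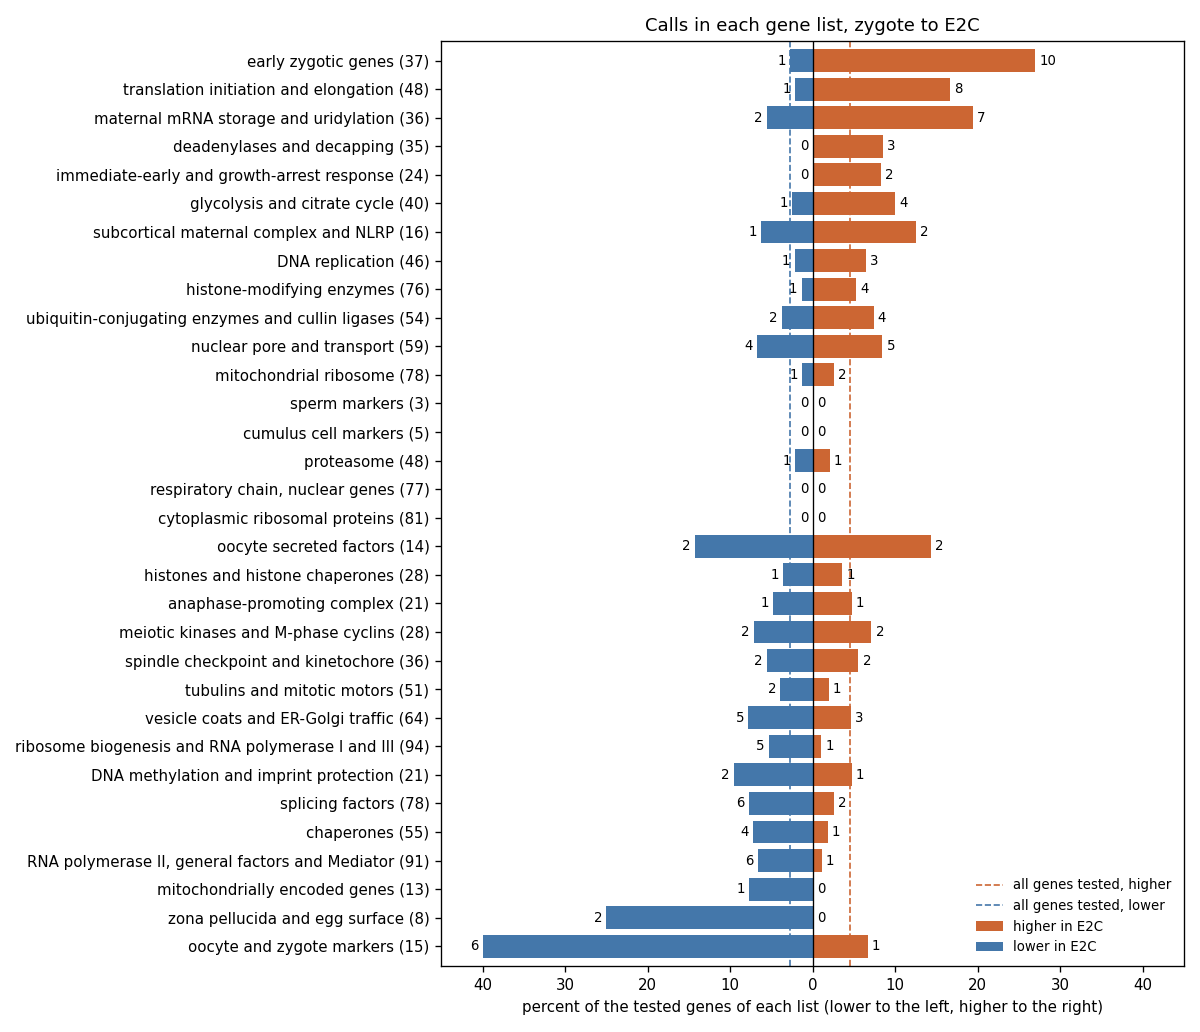
Share of the tested genes of each list that were called lower (blue, to the left) or higher (orange, to the right) in E2C embryos, in percent, with the number called beside each bar and the number tested in brackets. Dashed lines are the shares over all genes tested, 4.52% higher and 2.75% lower. The longest orange bar is that of the early zygotic genes (10 of 37) and the longest blue bar that of the oocyte and zygote markers (6 of 15).

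Of 37 genes listed as early zygotic, 10 rose and 1 fell, at a median change of 0.55 (9 and 1 with TMM scaling). The list is not confined to minor ZGA. Zscan4c, Zscan4d, Zfp352 and Mt1, which were among the rises, had been set down as markers of major ZGA. The fall was Obox2, a homeobox gene abundant in the egg, at 501 to 783 copies in zygotes and 381, 164, 171, 274 and 298 in E2C embryos. With such members the whole list summed to 1150 to 1630 copies in zygotes and 811 to 1140 in E2C embryos. All 10 rises stayed under 10 copies on average, so the rule for named genes did not reach them, and those below were named after their values were seen. Duxf3, a copy of the transcription factor Dux that activates 2-cell genes, was at 0 in all zygotes but 1, which had 0.302, and at 6.64, 2.13, 5.49, 6.06 and 3.24 in E2C embryos (2.45 ± 0.16, adjusted p = 2.06e-19). It was listed at 0 in all oocytes and in the L2C mean. Of the 10 it was, with Mt1, above 2 copies in every E2C embryo. The Mt1 call was lost with TMM scaling, edgeR and DESeq2, against run 3 alone and without E2C embryo 4 or 5.

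Others differed between embryos. Zscan4d, a telomere and chromatin factor of 2-cell embryos, was at 0 to 0.906 copies in zygotes and at 0, 5.45, 15.2, 8.48 and 0 in E2C embryos (1.99 ± 0.34, adjusted p = 1.77e-05), and its near copy Zscan4c at 0, 2.63, 12, 5.93 and 1.09. The Eif1a-like genes Gm8300 (0, 5.47, 12.9, 7.93 and 0) and Gm5662 (0, 3.0, 27.1, 2.62 and 0) were again highest in embryo 3, as were Spz1, a transcription factor gene (0.652, 2.82, 5.16, 3.17 and 0.543), and BC080695 (0.547, 1.95, 6.25, 2.55 and 0). In these 6 genes embryos 2 and 4 came next, and embryos 1 and 5 were at 1.09 copies or less. Zfp352 and Usp17lc had no UMI in any zygote. In E2C embryos 1 to 5 Zfp352 was at 0, 2.66, 2.04, 1.52 and 0 copies and Usp17lc at 0, 1.24, 4.0, 1.1 and 0.543. Set against the limit that 3 UMIs over all zygotes allow, 0.123 copies, their E2C means were at least 10.1-fold and 11.2-fold higher. That bound leaves out the counting error and the spread of the E2C embryos. The shallowest cell belongs to embryo 5, while the cells of embryo 1 held 76742 and 91412 UMIs and those of embryo 2 held 70469 and 94983. Gm5662 and Usp17lc lost their call without E2C embryo 3, and Zfp352 without embryo 2, 3 or 4. The sequences of these families are close, so reads may have been shared among copies. Other settings called fewer members higher: 2 of 21 with edgeR or DESeq2, and 4 of 23 with a filter at 5 copies. The counts were 3 of 18 after thinning all cells to equal depth and 0 of 37 with a pseudocount of 5. Fitted on zygotes and E2C embryos only, 3 of 17 were called higher.

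**Figure D3:**
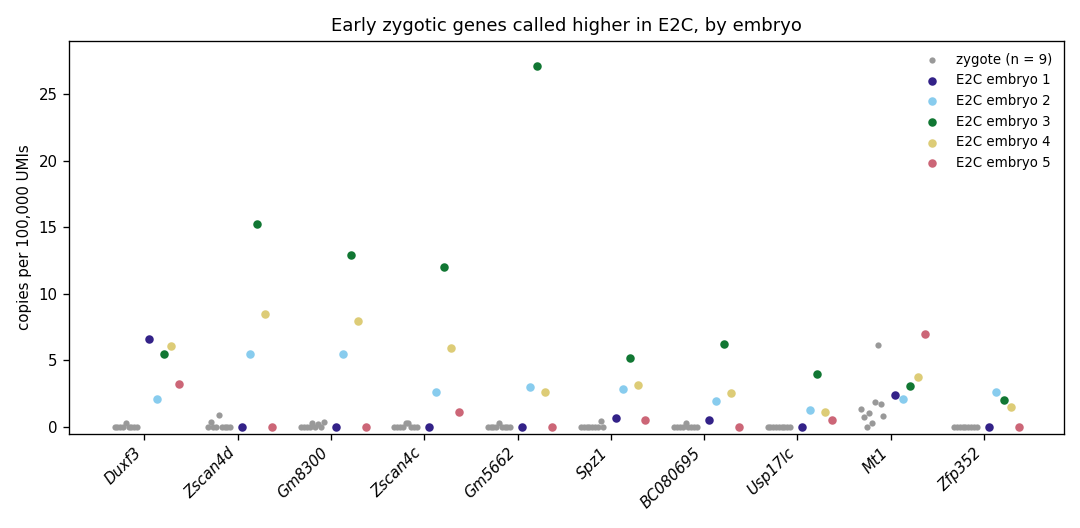
Levels of the 10 early zygotic genes called higher in E2C embryos, in copies per 100,000 UMIs on a linear axis, with zygotes in grey (n = 9) and the 5 E2C embryos in colours. E2C embryo 3 is highest in 7 genes, at up to 27.1 copies of Gm5662, embryos 1 and 5 are at or near 0 in most, and Duxf3 is above 2 copies in all 5.

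Among isoforms, 657 of 29409 tested were higher (2.23%) and 865 were lower (2.94%) in E2C embryos, and 434 and 1440 with TMM scaling. Many of these changes did not show at the gene level: 408 of the rising and 491 of the falling isoforms belonged to genes that were not called. Isoforms of 1 gene are not independent, so the number of genes they come from is given in brackets. Splicing factors had 29 falling (16 genes) and 6 rising isoforms (5 genes) of 569 tested. Spindle checkpoint and kinetochore genes had 27 falling (7 genes) and 5 rising (4 genes) of 246. The SCMC and NLRP list had 23 rising (8 genes) and 7 falling (4 genes) of 182. The ubiquitin list had 20 rising (13 genes) and 3 falling (2 genes) of 409. Ribosomal protein genes had 3 rising and 3 falling of 565.

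The share of each isoform in its gene was tested on the 14 embryos, and 81 of 4028 genes (2.01%) switched isoforms, with 43 isoforms gaining and 107 losing share (150 in all, and 84 without E2C embryo 2). Sfr1, a factor of homologous recombination, is shown with the ends of its isoforms, because their 3′ ends differed. The isoform PB.39642.4 stops inside the gene at chr19:47733809 on the plus strand of mm10 and covers 3 exons. It held 22.8% to 37.6% of the gene's UMIs in zygotes (median 30.5%) and 5.13%, 6.27%, 5.13%, 4.17% and 8.66% in E2C embryos (gene adjusted p = 4.98e-05). PB.39642.2, a full match to the annotated transcript with 4 exons, runs on to chr19:47735588. It went from 3.85% to 18.7% (median 6.57%) to 53.3%, 37.3%, 36.9%, 55.0% and 43.4%. In both isoforms the groups did not overlap. In copies, the short form fell from a median of 21 to between 1.48 and 2.7 and the long form rose from 3.73 to between 8.36 and 28.1, while the gene's sum over isoforms went from a mean of 70.1 to 34.2. The sequences below give, 5′ to 3′, the last 30 bases of each isoform and, where it could be read, the 20 bases of transcribed sequence that follow, with As in capitals in the latter.
Sfr1 PB.39642.4, last 30 bases: ctcccaaaggagtctgagaatgcgatcatt
Sfr1 PB.39642.4, next 20 bases: AgAgAAAAAttAAAAcAAgA
Sfr1 PB.39642.2, last 30 bases: atgtactaaaatgaacatctgtttcttggg
The short form ended just before a stretch with 14 As in 20 bases, at chr19:47733810-47733829.

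Further switching genes lost an isoform that had no UMI in any E2C embryo. G3bp2, a protein of stress granules, lost the isoform PB.57729.328, which held 5.88% to 40.0% of the gene in zygotes (median 20.0%) and 0% in all 5 E2C embryos (gene adjusted p = 2.12e-05). That isoform ends at chr5:92054471 on the minus strand, short of PB.57729.263, which ends at chr5:92053689 and whose share went from 0% to 6.67% to 13.5%, 0%, 50%, 11.8% and 50% without passing the test (isoform adjusted p = 0.16). Zrsr2, a splicing factor of rare introns, lost PB.82093.73, from 37.1% to 66.7% to 0% in all 5, and that isoform ends at chrX:163954396 on the minus strand. PB.82093.75, which ends at the same base, held 16.7% to 45.7% in zygotes and 0%, 100%, 0%, 100% and 0% in E2C embryos. Both ends lie before A-rich bases, 16 of 20 in G3bp2 and 11 of 20 in Zrsr2, whereas the longer G3bp2 isoform is followed by 3 As.
G3bp2 PB.57729.328, last 30 bases: aggacatgcccactgagttcaggtcatttg
G3bp2 PB.57729.328, next 20 bases: AgttAAAAcAAAAAAAAAAA
G3bp2 PB.57729.263, next 20 bases: tctgtgggggAgggAgggAg
Zrsr2 PB.82093.73, next 20 bases: AAAAcggAAggAAgAActAg
The E2C shares of Zrsr2, Ubxn4, Bub1b, Rdx and G3bp2 rest on few UMIs. Summed isoform levels of those genes in E2C embryos were 1.64, 1.51, 2.16, 3.85 and 4.21 copies. The G3bp2 isoform PB.57729.263 was at 0.945, 0, 0.728, 0.78 and 0.834 copies in E2C embryos 1 to 5. At the gene level the E2C mean of Rdx was 28.5 copies, so its shares cover only the UMIs placed in kept isoforms. Rdx lost PB.75793.6, from 22.9% to 36.2% to 0% in all 5, and Ubxn4 lost PB.3265.20, from 50% to 71.4% to 0% in the 4 E2C embryos with a UMI of the gene.

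Isoforms of 1 gene could rise and fall at once without a call for the gene. Ssb, the La protein that protects RNA ends, lost PB.42050.1, which was at 1.15 to 40.3 copies in zygotes (median 13.8) and at 0.945, 0, 0, 0 and 0 in E2C embryos (-3.68 ± 0.50, adjusted p = 3.03e-07). PB.42050.156, a 2-exon isoform that reaches the annotated end of the gene, had no UMI in any zygote and was at 0, 2.44, 1.0, 0.780 and 2.52. The rise of PB.42050.156 (1.0 ± 0.29, adjusted p = 0.0237) was lost without E2C embryo 2, 3 or 5. Top1, a topoisomerase, lost PB.44983.4, from 1.91 to 18.1 copies (median 10.4) to 0, 0, 0, 1.56 and 0 (-3.11 ± 0.40, adjusted p = 6.03e-08), and gained PB.44983.185, from 0 to 1.31 to 2.70, 2.44, 1.0, 0.780 and 8.41 (1.08 ± 0.35, adjusted p = 0.0459, lost without E2C embryo 5). The gained isoform ends at chr2:160722764 and carries the letters of the poly(A) signal, in capitals.
Top1 PB.44983.185, last 30 bases: ttaaAATAAActcctacaacttaacggaaa
Pkd2l2, a channel protein, had 1 falling and 1 rising isoform, with PB.35826.2 at 2.30 to 49.5 copies in zygotes and 0.780 to 7.28 in E2C embryos and PB.35826.14 at 0 to 7.09 and 4.45 to 19.7.

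**Figure D4:**
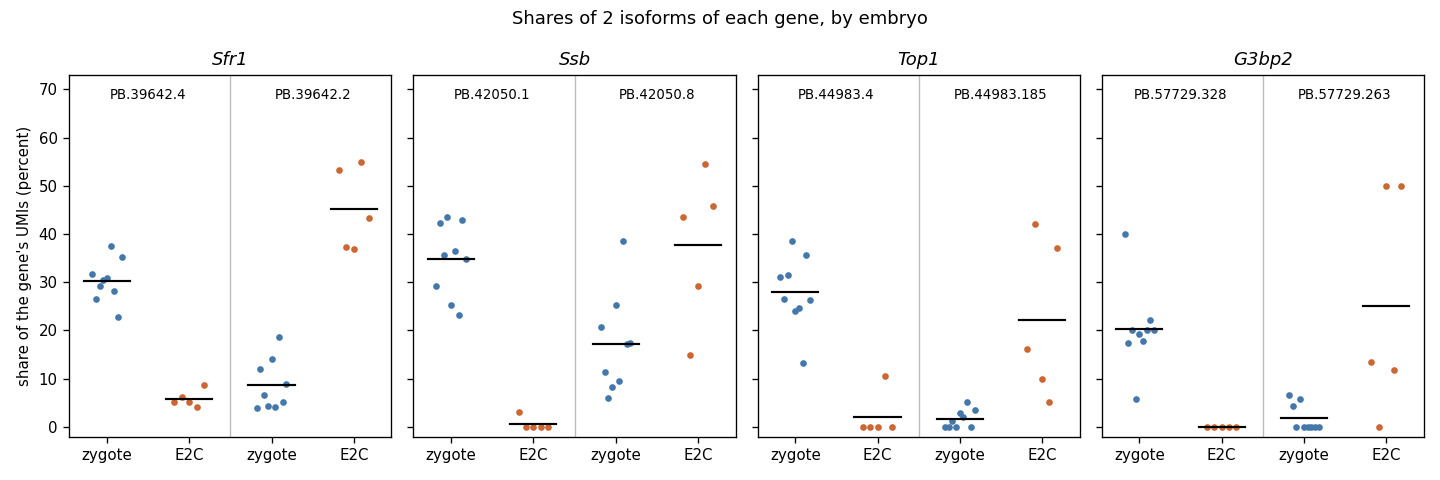
Shares, in percent, that 2 isoforms took of all UMIs of Sfr1, Ssb, Top1 and G3bp2, in zygotes (blue, n = 9) and E2C embryos (orange, n = 5), with means as black lines. The isoform on the left of each panel fell to 8.66% or less in every E2C embryo but 1 of Top1 (10.5%), and the isoform on the right was on average higher in E2C embryos, a difference that passed the test for Sfr1 and Top1 only. The E2C shares of G3bp2 rest on few UMIs, at a summed isoform level of 4.21 copies.

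Over the 81 switching genes, the isoform that gained the most share ended further downstream than the one that lost the most in 48, nearer in 7 and within 50 bases in 26. It was longer in 51 genes and shorter in 30, with a median difference of 331 bases. Its 5′ start lay further downstream in 45, upstream in 11 and within 50 bases in 25. Neither of the isoforms compared in a gene had to pass the test itself, and 43 isoforms gained share by that test. Of the switching genes 27 also fell and 3 rose as genes.

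The 3′ ends of the changed isoforms were set beside those of the rest, with no test. The letters AATAAA or ATTAAA, the common poly(A) signals, stood in the last 30 bases of 56.4% of isoforms that were not called, of 46.7% (224 of 480 read) of those that rose and of 28.6% (168 of 588) of those that fell. At least 10 As in the next 20 bases followed 7.14% of isoforms not called, 7.67% (25 of 326) of rising and 35.5% (149 of 420) of falling isoforms. In the switching genes, the isoforms that lost the most share had a signal in 10 of 59 (16.9%) and A-rich bases in 21 of 42 (50%). The isoforms that gained the most, whether or not the gain passed the test, had them in 29 of 61 (47.5%) and 3 of 43 (6.98%). An oligo-dT primer can anneal to A-rich bases inside a transcript as well as to a poly(A) tail, and its part in these values was not tested. Isoforms with A-rich bases after their end held 9.13% to 13.8% of UMIs in zygotes (median 12.3%) and 8.81% to 10.2% in E2C embryos (median 9.57%), and the zygotes of run 3 were at 9.13% to 10.8%. Without such isoforms, 636 isoforms rose and 716 fell. The gene counts, with levels summed over the remaining isoforms, were 408 higher and 283 lower of 8194.

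**Figure D5:**
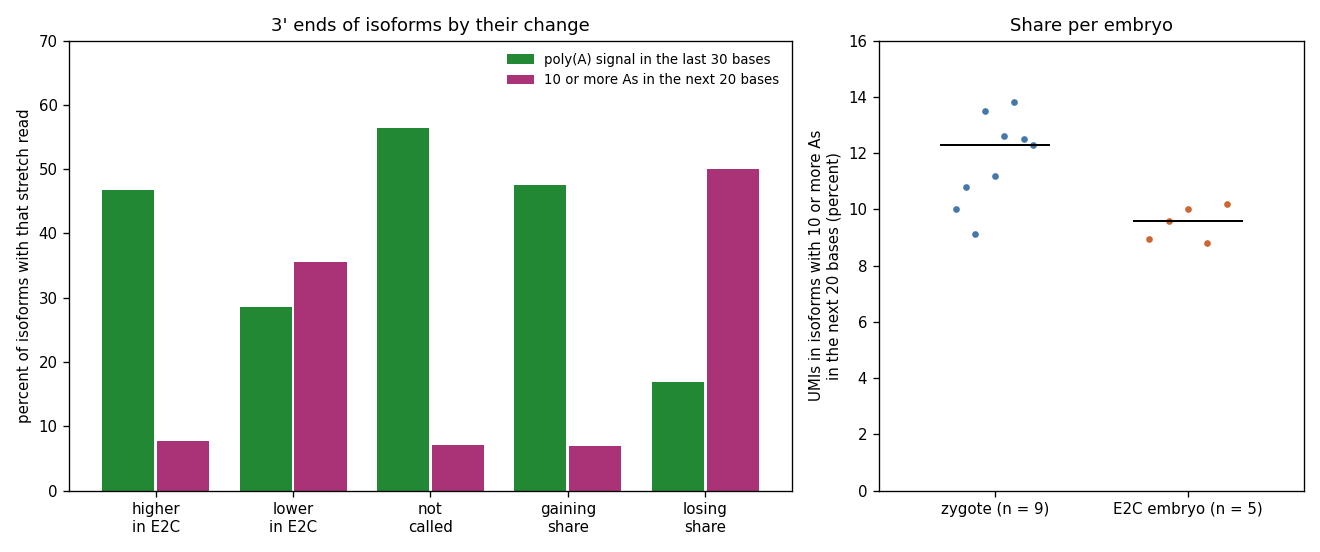
Left, percent of isoforms with a poly(A) signal in their last 30 bases (green) and with 10 or more As in the next 20 bases (purple), by change in level or in share. Gaining and losing are the isoforms with the largest gain and loss of share in each switching gene, whether or not they passed the test. Right, percent of UMIs per embryo in isoforms with A-rich bases after their end, with medians as black lines. Falling and losing isoforms have the lowest green bars (28.6% and 16.9%) and the highest purple bars (35.5% and 50%), and in the right panel the highest zygote is at 13.8% and the lowest, at 9.13%, lies within the range of the E2C embryos.

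Rising isoforms had fewer exons than falling ones, at a mean of 4.45 and 6.12 (5.76 for those not called), and had 1 exon only in 6.24% and 1.5% (2.65% of those not called). Median lengths were 1208, 1191 and 1257 bases. By structure, 316 rising and 387 falling isoforms matched an annotated transcript in full (48.1% and 44.7%, against 38.9% of all isoforms tested). Partial matches were 252 and 331 (38.4% and 38.3%, against 42.3% of all). New combinations of known junctions were in 29 and 63 (4.41% and 7.28%, against 7.57%), and new junctions in 60 and 84 (9.13% and 9.71%, against 11.3%).

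The cytoplasmic polyadenylation element, searched as TTTTAT or TTTTAAT in the last 100 bases of the strand of the mRNA, is the site by which stored mRNAs gain their tails. It was found in the most abundant isoform of 13% of the genes that rose (39 of 300 read), 32.6% of those that fell (60 of 184) and 22.0% of all genes (1376 of 6268). The call rule favours falls among genes abundant in zygotes, so the same was counted for genes at 10 or more copies in zygotes. There the element was in 6.67% of rises (2 of 30), 30.3% of falls (30 of 99) and 31.4% of all. At these levels the share in falls was close to that of all genes. Of the 10 largest falls, 5 could be read and 1, Lamtor3, held the element, which starts 48 bases before the end and lies in the window chr3:137928710-137928739.
Lamtor3, 30 bases around the element in capitals: aggatggccattTTTTATacatgtgtataa

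Over the whole transcriptome, E2C embryos held more genes and isoforms at equal depth. After thinning, zygotes held 5810 ± 123 isoforms per cell (SD, n = 9) and E2C embryos 6470 ± 169 (n = 5; p = 0.0005 by exact two-sided permutation, which is the lowest value the 2002 splits can give, and adjusted p = 0.005). Genes per cell were 5200 ± 257 and 5730 ± 102 (exact permutation, adjusted p = 0.00833). Zygotes of runs 1, 2 and 3 held 5240, 5530 and 4910 genes, all below the E2C mean. The major isoforms of all genes together held 69.3% ± 1.25 of a thinned cell's UMIs in zygotes and 66.5% ± 2.57 in E2C embryos (exact permutation, adjusted p = 0.029), a call lost without E2C embryo 1, 2 or 3. Full matches to annotated transcripts held 73.5% ± 1.12 and 70.5% ± 2.06 of UMIs (exact permutation, adjusted p = 0.00833) and partial matches 16.0% ± 1.26 and 19.5% ± 2.89 (adjusted p = 0.0125, exact permutation). Mean isoform length per UMI was 1390 ± 58.5 and 1370 ± 78.8 bases, a difference within the spread (exact permutation, adjusted p = 0.644), as was that of the share of UMIs from mitochondrial genes, at 5.28% ± 1.96 and 5.18% ± 1.64 (exact permutation, adjusted p = 0.932).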

How the data were processed

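The members and gene lists were chosen with earlier results of these data known. The authors placed each cell with a barcoded gel bead, reverse transcribed it with an oligo-dT primer, pooled about 60 blastomeres a library, sequenced circular consensus reads, mapped them to mm10 with minimap2, collapsed them with cDNA_Cupcake and classed isoforms with SQANTI3, removing isoforms seen in under 5 cells. The values the authors deposited are a CPM-type unit, the UMI count of a gene or isoform per 100,000 of its cell (20171 genes, 68012 isoforms, 161 cells). Whole UMIs could be recovered for 100% of values (tolerance 0.1). A poly(A)-primed library gives 3′ ends that depend on where the primer annealed, which bears on the isoforms.

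Embryo means were tested as log2(value + 1), a scale that understates changes of low genes, with limma 3.58.1 (7 stages in 1 fit, array weights, trended variance) on genes at 1 or more copies in at least 4 embryos. A change over 1 on the log2 scale with p under 0.01 was called. Isoform shares were tested with limma on the arcsine of their square root in 14 embryos, and a switch needed adjusted p-values under 0.01 for the gene and 0.05 for the isoform. Other summaries were compared by exact two-sided permutation, with p adjusted over 10 measures, after thinning cells to 31037 gene and 18081 isoform UMIs in 5 draws. Cells held 31037 to 105534 gene UMIs at E2C and 194072 to 389775 in zygotes, and a count of 0 allows 3 UMIs (counting error only). On simulated counts, 96% of 200 genes changed 4-fold were recovered and 0.635% of unchanged genes were called. For isoforms the values were 96% and 0.857%, and for switching genes 87.5% and 0.315%. Changed genes were drawn from the more abundant ones, with a fixed spread and no difference between runs. These rates may therefore not hold for genes of low level or across runs.

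Named genes were, per list, up to 3 called genes a direction with the largest change at 10 or more copies and the 2 highest members, then the 10 largest rises and falls without overlap, 8 switches with the smallest p, and 4 genes with isoforms called in both directions. Other called members of a list are named from its counts, after their values were seen. Sequences are from the GENCODE vM21 transcripts of GRCm38 (mm10). Alternatives were edgeR 4.0.16, DESeq2 1.42.0, other pseudocounts, filters and scalings, each E2C embryo left out, zygotes of 1 run, cells thinned to 30000 gene or 20000 isoform UMIs, and, chosen after seeing the data, gene levels summed from isoforms. Cells of the remaining run were not used here. R 4.3.3, Python 3.11.15 and scipy 1.17.1 were used.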

Additional observations from a re-analysis of the deposited data

Results flagged for a closer look

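In 12 of 256 groups examined, the highest or lowest embryo lay apart from the others of its stage by Dixon's test, a number close to the 1 in 20 that chance gives. Among zygotes, zygote 3 was highest for Orc6 (157 copies) and lowest for U2af1 (4.59) and Dppa3 (682), and zygote 9 was highest for Sumo2 (116). Among E2C embryos, embryo 1 was lowest for Eif4e1b (19.2), Rps27l (130.0) and Kpnb1 (5.45) and highest in isoforms per thinned cell (6770). Embryo 2 was lowest for Lsm10 (8.79), Psma2 (44.3) and the share of UMIs in isoforms with new junctions (4.76%), and embryo 4 was highest for Arf1 (170.0).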

How the results depend on the processing

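No paired analysis was possible because the zygote and E2C embryo numbers name different embryos. Against 528 genes higher and 321 lower, the higher count was 890 with a pseudocount of 0.5, 61 with 5, 301 with TMM scaling, 1336 against the zygotes of run 3 and 322 with edgeR, and the lower count was 107 with a pseudocount of 5, 548 with TMM scaling, 519 against run 3 and 177 after thinning. Against 657 isoforms higher, counts were 1034 and 52 with pseudocounts of 0.5 and 5, 237 with a filter at 5 copies, 434 with TMM scaling, 1213 against run 3, 175 with edgeR, 171 with DESeq2 and 363 after thinning. Against 865 lower, they were 1324 and 164, 499, 1440 with TMM scaling, 326 with edgeR, 348 with DESeq2 and 200 after thinning. Switches were 40 genes and 66 isoforms on untransformed shares and 41 genes with a filter at 5 copies. Leaving out 1 E2C embryo gave 494 to 641 genes higher, 307 to 365 lower, and 54 to 82 switching genes with 84 to 135 isoforms. The difference in the share of UMIs in isoforms with new combinations of junctions (-0.514 percentage points) was -0.637 to -0.334 with 1 E2C embryo left out and no longer past the threshold without embryo 2 or 3 (-0.398). That of the major isoform (-2.85 points) was -3.54 to -2.01, and was no longer past it without embryo 1 (-2.82), 2 or 3 (-2.45) or at the lower thinning depth (-2.22). Of 141 called genes examined one by one, 20, 52 and 19 lost their call against the zygotes of run 1, 2 and 3 alone, 31 with TMM scaling, 21 with edgeR, 11 with DESeq2, 42 after thinning, 82 with a pseudocount of 5, and 7 to 24 with 1 E2C embryo left out. The sign changed for Lsm10 (-0.17) and Tmed2 (0.13) against run 2, mt-Nd3 (0.06) against run 3, Gnl2 (0.23) after thinning, and, from summed isoforms, Psma7 (0.35, also 0.35 without A-rich ends) and Dkc1 (0.25, and 0.57 without A-rich ends). The cause was not tested. Depth limits E2C values, since E2C embryos held 848348 UMIs against 2435838 in zygotes.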
